A study of Mus musculus with 6 samples.

Results

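The ubiquitin-specific proteases form the largest family of deubiquitinases, the enzymes that take ubiquitin off other proteins. They were followed in the developing mouse retina through 55 protein-coding genes of GENCODE M21 whose symbol is Usp followed by a digit. Of these, 45 had at least 1 poly(A) site in the table, out of 14397 nuclear genes with a site. The 45 genes held 117 of the 32688 sites and 86446 tags.

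Retinas of C57BL/6J mice, the common inbred strain, came from 3 embryonic ages (days E13.5, E15.5 and E18.5) and 3 postnatal ages (days P0, P6 and P21). No stage carried a genetic change or a treatment, and each had 1 sample. Poly(A)-site sequencing (PA-seq) primes reverse transcription at the poly(A) tail, so that each tag marks the 3′ end of an RNA. A level in CPM (tags scaled to a common library size, after TMM) therefore counts transcript ends and is not divided by transcript length.

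Ubiquitin is joined to target proteins by a cascade of enzymes and can send them to the proteasome, to the endosome or into a DNA repair or chromatin complex. A ubiquitin-specific protease cuts the bond again, with a cysteine in its active site, and so sets how long or how strongly the signal lasts. In neural tissue such proteases are known to act on histones, on receptors that cycle through endosomes, on DNA repair factors and on mitochondria. The symbol rule also takes in genes whose protein is no such enzyme or was long held not to be. Usp6nl codes for a GTPase-activating protein, which speeds GTP hydrolysis by Rab GTPases of endosomal traffic and so turns them off. Usp39 codes for a splicing factor with an inactive protease fold, and Usp53 and Usp54 for proteins long classed as inactive.

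The libraries held 3286158 (P0) to 4656153 (E18.5) tags, and 95.5% to 97.5% of them fell in genes or within 1000 bases downstream. A floor of 3 tags in a library corresponded to 0.654 to 0.944 CPM. The table had 2 count columns for each stage, whose meaning is not stated and which were added. The 2 columns stood apart on some retinal markers: Pde6b, a subunit of the rod phosphodiesterase, had 43.1 CPM in the first column and 0.574 CPM in the second at E13.5, and 103 and 10.4 CPM at P0. On the Usp genes the columns were closer, with a chi-square of 1.03 to 1.93 per gene against 1.29 to 3.54 per gene over all genes. Retinal markers moved with stage in the added columns: Nrl, Pde6b and Sag of rods rose, Grm6 and Prkca of bipolar cells rose, and Sfrp2, Fgf15 and Ccnd1 of progenitors fell. Lens transcripts (Cryaa, Cryba1, Crygs and Mip summed) had 564, 1329, 219, 1295, 73.5 and 370 CPM over the 6 stages and so were highest at E15.5 and P0. The part of these markers in the changes of Usp genes was not tested. In whole retina, fewer cells of a type and less RNA per cell cannot be told apart.

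As a sum, the Usp family stayed in a narrow range. Its 45 genes together had 3768, 3740 and 3740 CPM at the embryonic ages and 3805, 3749 and 3858 CPM at the postnatal ones, in order of age. Single members spanned a wide range, with mean levels of 3.01 CPM (Usp51) to 254 CPM (Usp47). Their median of 58.5 CPM compared with 43.2 CPM over all 14392 genes tested.

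Which members followed stage was asked with edgeR's quasi-likelihood F test on stage order over the 6 libraries, fitted on all genes. The fitted change is the log2 change over the 5 steps between E13.5 and P21, and an adjusted p (Benjamini-Hochberg over all genes) of 0.05 or less was called. With 1 sample per stage, these p-values set the slope against the scatter of 6 single libraries about a straight line and do not measure the spread between retinas. Of the 45 members, 6 rose (13.3%), beside 17.0% of all genes tested, and 4 fell (8.89%), beside 13.1% of all genes. The other 35 did not pass. At an unadjusted p under 0.05 there were 8 members up (17.8%, beside 23.2% of all genes) and 9 down (20%, beside 20.8%). The median fitted change of the members was 0.031, beside -0.025 over all genes. Their median absolute change was 0.52, beside 0.74 over all genes, and 11 members (24.4%) had an absolute change of at least 1, beside 39.1% of all genes. Without the P21 library the test called 1 riser and 0 fallers among the members, and without the E13.5 library likewise 1 and 0. Over all genes, risers then numbered 807 without P21 and 1262 without E13.5, and fallers 485 and 688. In both cases the riser that passed was Usp6nl. The second columns alone gave 8 risers and 4 fallers, which included all 10 called genes (2293 and 1325 over all genes), and the first columns alone 5 and 1 (2062 and 1613 over all genes). Without the E15.5 and P0 libraries, in which lens transcripts were high, 5 rose and 3 fell (1634 and 1091 over all genes), a setting added after the data had been seen.

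**Figure D1:**
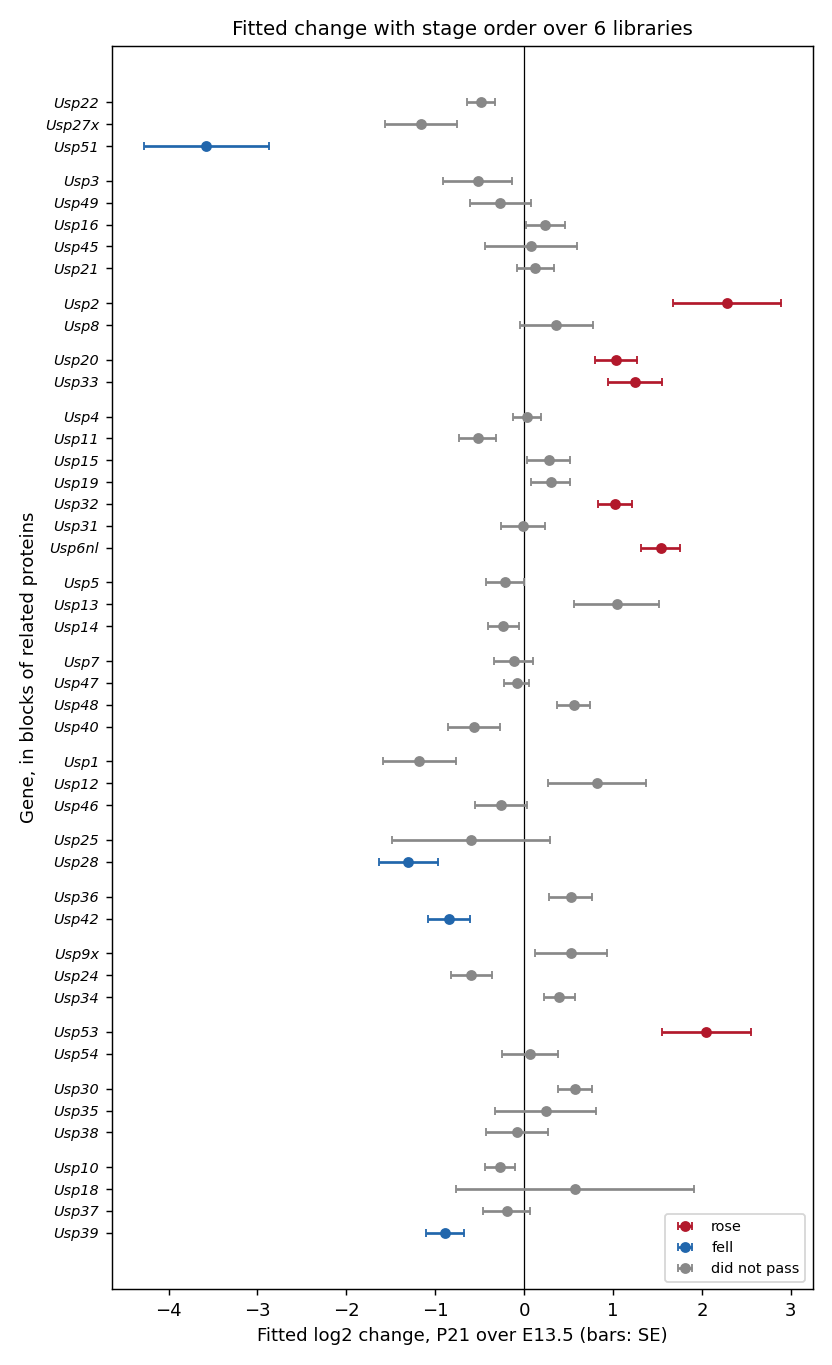
Fitted log2 change of the 45 Usp genes over stage order (x axis, P21 over E13.5, bars are the SE), in blocks of related proteins down the page, with risers in red, fallers in blue and genes that did not pass in grey. Most genes lie within 1 unit of 0, Usp2 (2.28) and Usp53 (2.05) lie farthest to the right and Usp51 (-3.58) farthest to the left.

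Of the 6 genes listed for membrane traffic and receptors (Usp2, Usp8, Usp10, Usp20, Usp32 and Usp33), 4 rose, 0 fell and 2 did not pass, beside 17.0% risers and 13.1% fallers over all genes. Their median fitted change was 1.03, and as the list was chosen with earlier results known, its count is a description only. Usp20 and Usp33 are close paralogs that take ubiquitin off G protein-coupled receptors and so let them recycle to the cell surface. Usp33 had 66.5, 82.9, 76.3, 74.9, 109 and 183 CPM over the 6 stages, given here and below by age. Its 4 stages up to P0 lay close together and P21 stood highest, with 95% Wilson intervals of 169 to 197 CPM at P21 and 58.7 to 75.4 CPM at E13.5. The fitted change was 1.25 ± 0.31 (SE, adjusted p = 0.0219). Usp20 had 41.1, 62.8, 64.6, 67.0, 90.8 and 90.4 CPM over the same stages. It was lowest at E13.5, level between E15.5 and P0, and higher again at P6 and P21, and its fitted change was 1.03 ± 0.24 (SE, adjusted p = 0.0182). Intervals like these cover counting error only. They are too narrow where tags are PCR copies, which are not independent molecules.

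Usp32, a large protease of the Golgi and late endosomes, had 91.2, 112, 132, 119, 164 and 200 CPM. The level dipped only at P0, and the fitted change was 1.03 ± 0.19 (SE, adjusted p = 0.00946). Of its tags, 97.5% fell on a site at chr11:84984440 on the minus strand (GRCm38), 2 bases past the annotated gene end. When only sites inside the gene were counted, that site was lost and the call with it.

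Usp2 takes ubiquitin off cyclin D1 and MDM2 and, in the kidney, off an epithelial sodium channel, and its transcript is known to cycle over the day in many tissues. It had 24.4, 38.8, 37.5, 43.7, 33.8 and 173 CPM. The 5 stages up to P6 stayed at or below 43.7 CPM and P21 stood alone, 5.12-fold above P6, with a 95% interval of 160 to 187 CPM. The 2 columns of P21 gave 159 and 186 CPM. The fitted change was 2.28 ± 0.60 (SE, adjusted p = 0.0279), and without P21 it was 0.54 (adjusted p = 0.498). The most used Usp2 site, which took 93.1% of its tags, lies in the last exon at chr9:44095595-44095624 (GRCm38, plus strand). The 30 bases up to it hold an AATAAA, the usual poly(A) signal, shown in capitals.
Usp2, main site: ttgtacagAATAAAtagtagctttgagaag

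Usp8 and Usp10 did not pass. Usp8, which acts on receptors at the endosome, ran between 18.1 CPM at E18.5 and 36.5 CPM at P21 (fitted change 0.36 ± 0.41, SE). Usp10 ran between 126 and 157 CPM (fitted change -0.27 ± 0.17, SE), and its sites also lie in the overlapping gene model Gm20388.

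The other 2 risers were genes whose products are no protease or were long classed as inactive. Usp6nl had 44.4, 50.4, 51.5, 72.7, 99.6 and 122 CPM, higher at each of the 5 steps. All 3 postnatal stages lay above all 3 embryonic ones, and the fitted change was 1.54 ± 0.22 (SE, adjusted p = 0.00461). It passed the same threshold when any library was left out. Its main site at the 3′ end of the last exon (chr2:6446359-6446388, plus strand) took 78.6% of its tags and has the variant signal ATTAAA, which occurs 2 times in the bases shown.
Usp6nl, main site: cagaagtATTAAAcactgattATTAAAcct

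Usp53, found at tight junctions and needed for hearing in mice, had few tags, with 22, 25, 47, 23, 76 and 88 over the 6 stages. These gave 6.02, 6.60, 10.3, 7.24, 18.7 and 24.1 CPM. Its 2 latest stages were the highest, and the fitted change was 2.05 ± 0.50 (SE, adjusted p = 0.0219). In the first column alone the change was 1.74 (adjusted p = 0.0737). Usp54, its paralog, stayed between 21.8 and 28.0 CPM with a fitted change of 0.070 ± 0.32 (SE). The difference between the paralogs was not tested. The list of genes without a protease domain or long classed as inactive held Usp6nl, Usp39, Usp53 and Usp54. Of these 4, 2 rose, 1 fell and 1 did not pass, beside 17.0% risers and 13.1% fallers over all genes.

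**Figure D2:**
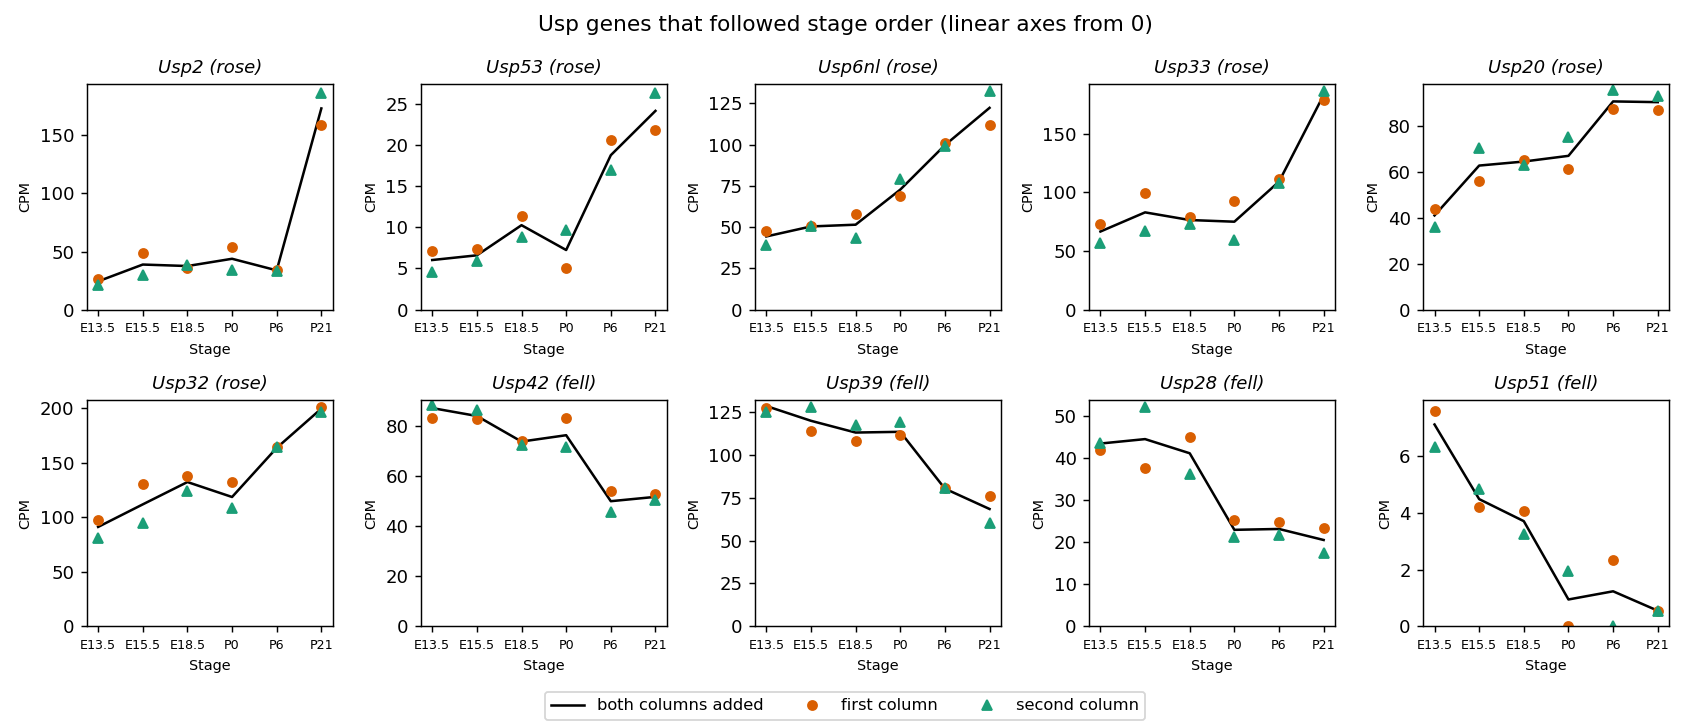
CPM by stage of the 6 Usp genes that rose and the 4 that fell, each on its own linear axis starting at 0; the line joins the added columns, circles are the first and triangles the second count column. Usp2 stands out at P21 alone (173 CPM), while Usp6nl is higher at every step and Usp28 is lower at P0 (23.0 CPM) than at E18.5 (41.2 CPM).

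Among the proteases of histones and chromatin, 7 of 8 listed genes had a site. Of these, 0 rose, 1 fell and 6 did not pass, beside 17.0% and 13.1% of all genes, with a median fitted change of -0.48. The related genes Usp22, Usp27x and Usp51 code for alternative catalytic subunits that share the partners Atxn7l3 and Eny2 and act on histone H2B and H2A. Usp22, the subunit of the SAGA coactivator, was the most abundant of them, with 272, 244, 240, 246, 216 and 181 CPM. Its level was highest at E13.5 and lowest at P21, with a fitted change of -0.48 ± 0.16 (SE, adjusted p = 0.0551) that did not pass. Usp27x had 24.4, 26.4, 19.6, 18.6, 17.5 and 9.87 CPM. All its postnatal stages lay below the embryonic ones, but the fitted change of -1.16 ± 0.40 (SE, adjusted p = 0.0646) did not pass.

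Usp51 was the member with the lowest mean level and the largest fitted change. It had 26, 17, 17, 3, 5 and 2 tags, which correspond to 7.12, 4.49, 3.71, 0.944, 1.23 and 0.548 CPM. The 3 postnatal stages were all below the 3 embryonic ones and near the floor of 3 tags. P21 stood at 0.0770 of the E13.5 level, with an exact 95% interval of 0.00886 to 0.308 for counting error. Its fitted change was -3.58 ± 0.70 (SE, adjusted p = 0.0110), and in the first column alone -3.09 (adjusted p = 0.0776). Its only site lies inside the coding exon (chrX:153008159-153008188, GRCm38, plus strand), has neither AATAAA nor ATTAAA in the 40 bases before it, and is followed by A-rich sequence, at which an oligo(dT) primer can also start. Whether these tags mark a true 3′ end was not tested.
Usp51, only site: gacaaagatatagaaaagatcgccaaagaa

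Usp3, a protease of ubiquitin on histone H2A, had 186, 211, 222, 215, 213 and 104 CPM. Its 5 stages up to P6 lay between 186 and 222 CPM and P21 was 0.487-fold the P6 level, but the straight-line fit gave -0.52 ± 0.39 (SE) and did not pass. Usp16, Usp21 and Usp49, which also act on histones, had mean levels of 50.8, 91.7 and 48.2 CPM and fitted changes of 0.24, 0.13 and -0.27, none past the threshold. The weaker sites of Usp49 also lie in the overlapping gene model Gm20517. Usp44, the last gene of the list, had no site.

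Among the proteases of DNA damage and replication, 0 of 6 genes rose, 1 fell and 5 did not pass, beside 17.0% risers and 13.1% fallers over all genes, with a median fitted change of -0.32. Usp28, which stabilises Myc and takes part in the DNA damage response, had 43.5, 44.6, 41.2, 23.0, 23.2 and 20.6 CPM. The postnatal stages formed a low group and the embryonic ones a high group without overlap. The fitted change was -1.30 ± 0.33 (SE, adjusted p = 0.0245), and it was -0.99 in the first column alone (adjusted p = 0.0674). Usp1, which with its cofactor Wdr48 takes ubiquitin off PCNA and FANCD2, also had a high early and a low late group, but split later. It had 209, 175, 197, 213, 89.3 and 94.0 CPM, with P6 at 0.419-fold the P0 level. The straight-line fit gave -1.18 ± 0.41 (SE, adjusted p = 0.0642), and Usp1 did not pass. Its 2 columns were 97.1 and 81.3 CPM at P6 and 118 and 69.7 CPM at P21.

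Usp47, known from base excision repair, was the most abundant member and the steadiest, with 258, 258, 257, 266, 236 and 250 CPM and a fitted change of -0.081 ± 0.14 (SE). Usp7, which takes ubiquitin off MDM2 and p53, ran between 84.4 and 116 CPM (fitted change -0.12 ± 0.22, SE). Usp48 was highest at P21 with 215 CPM and lowest at E13.5 with 128 CPM, and its change of 0.56 ± 0.19 (SE, adjusted p = 0.0604) did not pass. Usp11 was lower in all postnatal than in all embryonic stages, with 126 to 160 CPM after birth and 173 to 203 CPM before it, and did not pass either (-0.52 ± 0.21, SE, adjusted p = 0.0923).

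The other 2 fallers were Usp39 and Usp42. Usp39, part of the spliceosome, had 129, 120, 113, 114, 80.4 and 68.5 CPM. Its 4 stages up to P0 lay above P6 and P21, and the fitted change was -0.89 ± 0.21 (SE, adjusted p = 0.0209). The proteases Usp4 and Usp15, which act on spliceosomal proteins, did not pass, with fitted changes of 0.031 ± 0.16 and 0.27 ± 0.24 (SE). Usp42, a nuclear protease that takes ubiquitin off p53, had 87.3, 84.2, 73.9, 76.5, 50.1 and 51.8 CPM. As with Usp39, the levels at P6 and P21 were below all earlier ones, and the fitted change was -0.84 ± 0.23 (SE, adjusted p = 0.0318). Its relative Usp36, a protease of the nucleolus, was higher in all postnatal than in all embryonic stages (59.7 to 63.6 against 43.0 to 50.7 CPM), with a fitted change of 0.53 ± 0.24 (SE) that did not pass. The difference between Usp42 and Usp36 was not tested.

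**Figure D3:**
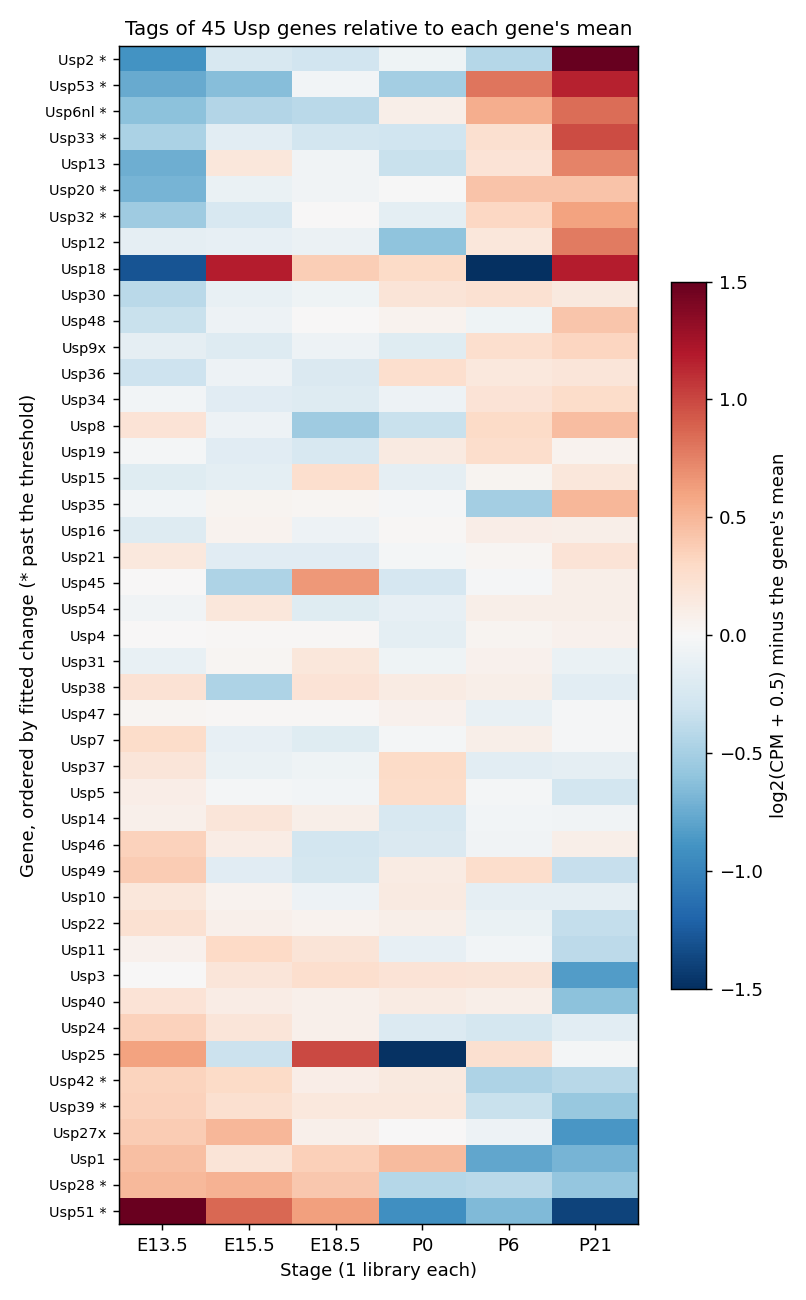
Log2(CPM + 0.5) of the 45 Usp genes at each of the 6 stages minus the gene's own mean over stages, red above and blue below it, ordered by fitted change, with an asterisk at each gene past the threshold. Colour is strong at both ends of the list and pale in between, with isolated strong cells for Usp18 and Usp25, which have few tags.

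The remaining abundant members stayed close to their own mean. Usp34, a very large protease known from Wnt signalling, had 218, 199, 196, 213, 257 and 271 CPM. Usp5, which breaks up free ubiquitin chains, had 224, 206, 204, 254, 206 and 173 CPM. Usp14, the protease bound to the proteasome, had 193, 207, 194, 155, 178 and 176 CPM. None of them passed, with fitted changes of 0.40, -0.21 and -0.23. Usp13, the paralog of Usp5, was rarer, with 24.7 CPM at P21 and 8.49 CPM at E13.5, and its change of 1.04 ± 0.48 (SE, adjusted p = 0.134) did not pass. The proteasome and free-chain list (Usp5, Usp13 and Usp14) thus had 0 risers and 0 fallers, beside 17.0% and 13.1% of all genes.

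The proteases bound by Wdr48 (Usp1, Usp12 and Usp46) likewise had 0 risers and 0 fallers, beside 17.0% and 13.1% of all genes. Usp46, known to act on glutamate receptors, had a mean of 44.2 CPM and a change of -0.26, and Usp12, with a mean of only 7.30 CPM, had 0.82 ± 0.55 (SE). Usp30, the protease of the outer mitochondrial membrane that opposes parkin, was higher in all postnatal stages (124 to 132 CPM) than in the embryonic ones (85.2 to 108 CPM). Its fitted change of 0.58 ± 0.19 (SE, adjusted p = 0.0549) did not pass. Usp45, a gene found mutated in people with an inherited retinal dystrophy, had 18.1, 12.9, 28.6, 15.1, 17.8 and 19.2 CPM. Only E18.5 stood out, and the fitted change was 0.074 ± 0.52 (SE).

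None of the members not yet described passed. Usp9x, Usp19 and Usp35 had fitted changes of 0.53, 0.30 and 0.24. Usp24, Usp25, Usp37 and Usp40 had changes between -0.60 and -0.20, and Usp31 and Usp38 had changes of -0.0088 and -0.080. Usp18, the protease of the ubiquitin-like protein ISG15, which interferon induces, had a change of 0.58 with an SE of 1.34. It had 3, 26, 17, 11, 2 and 25 tags, and so was high at E15.5 and P21 and under the floor or at it at E13.5 and P6. Both columns showed this pattern, with 6.30 and 7.53 CPM at E15.5 and 0.467 and 0.528 CPM at P6. Of the 5 X-linked members listed, 4 had a site, 0 rose and 1 (Usp51) fell, beside 17.0% risers and 13.1% fallers over all genes. The changes were -1.16 for Usp27x, -0.52 for Usp11 and 0.53 for Usp9x.

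Setting period against period without a test, 5 members had all 3 postnatal stages above all 3 embryonic ones (11.1%), beside 15.5% of all genes. They were Usp6nl, Usp20, Usp19, Usp30 and Usp36. In 6 members (13.3%), beside 16.8% of all genes, all postnatal stages were below, and these were Usp51, Usp28, Usp27x, Usp24, Usp11 and Usp14. The other 34 overlapped. Between neighbouring stages, a difference of 2-fold or more, backed by 20 or more tags in the larger library, was rare. P21 was higher than P6 in Usp2, Usp18 and Usp35 (3 members, 6.67%, beside 9.16% of all genes) and lower in Usp3 (1 member, 2.22%, beside 4.25%). P6 was higher than P0 in Usp53 and Usp25 (4.44%, beside 8.95%) and lower in Usp1 (2.22%, beside 6.71%). P0 was lower than E18.5 in Usp25 (2.22%, beside 4.91%), E18.5 was higher than E15.5 in Usp25 and Usp45 (4.44%, beside 4.79%), and E15.5 was higher than E13.5 in Usp18 (2.22%, beside 5.02%). No member was at least 2-fold lower at E15.5 than at E13.5 (beside 2.65% of all genes), lower at E18.5 than at E15.5 (beside 2.22%) or higher at P0 than at E18.5 (beside 1.91%). Usp25, the paralog of Usp28, had 40, 21, 66, 7, 34 and 25 tags, so that P0 was far below both of its neighbours.

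The 10 members without a site were Usp50, Usp17la, Usp17lb, Usp17lc, Usp17ld, Usp17le, Usp44, Usp43, Usp26 and Usp9y. Usp26 and Usp9y are known from the testis. The weakest site of any nuclear gene in the table had 41 tags over all columns, so a gene without a site may still be transcribed at a low level.

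Partners of these proteases were taken from a list of 16 genes. Of these, 1 rose, 3 fell and 12 did not pass (median fitted change -0.21), beside 17.0% risers and 13.1% fallers over all genes. Atxn7l2, a relative of the protein that anchors the Usp22 module in SAGA, had 5.48 CPM at P21 and 22.7 CPM at E13.5 and fell by 2.05 on the log2 scale (SE 0.40, adjusted p = 0.0109). G3bp1, the stress granule protein that binds Usp10, had 196 CPM at P21 and 591 CPM at E13.5 and fell by 1.61 (SE 0.16, adjusted p = 0.00250). Gmps, the enzyme of GMP synthesis that binds and stimulates Usp7, had 61.7 CPM at P21 and 137 CPM at E13.5 and fell by 1.41 (SE 0.32, adjusted p = 0.0168). Wdr20, an activator of Usp12 and Usp46, had 81.7 CPM at P21 and 21.4 CPM at E13.5 and rose by 1.53 (SE 0.40, adjusted p = 0.0260). The shared subunits Wdr48, Atxn7l3 and Eny2 did not pass, with fitted changes of -0.15, -0.12 and -0.28. Thus Usp10 and Usp7 did not pass where their partners G3bp1 and Gmps fell, but these differences were not tested.

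Of 33 deubiquitinases of other families, or of the same fold under another symbol, 31 were tested. Of these, 5 rose, 3 fell and 23 did not pass (median fitted change 0.15), shares near the 17.0% and 13.1% of all genes. Otud7b had 270 CPM at P21 and 94.5 CPM at E13.5 and rose by 1.73 (SE 0.25, adjusted p = 0.00471). Cyld, a tumour suppressor that cuts linear ubiquitin chains, had 152 CPM at P21 and 42.2 CPM at E13.5 and rose by 1.71 (SE 0.27, adjusted p = 0.00552). Zranb1, a protease known from Wnt signalling, had 220 CPM at P21 and 104 CPM at E13.5 and rose by 1.42 (SE 0.33, adjusted p = 0.0183). Otub2 and Otud7a also rose, and Cops5, Eif3h and Otulin fell. Of 6 ubiquitin and E1 genes, 0 rose, 1 fell and 5 did not pass, beside the same shares of all genes. Rps27a, which codes for ubiquitin fused to a ribosomal protein, had 40.01 CPM at P21 and 88.2 CPM at E13.5 and fell by 1.24 (SE 0.27, adjusted p = 0.0153). The polyubiquitin gene Ubb had a fitted change of 0.0042 ± 0.18 (SE) and did not pass.

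The 3′ ends of these genes were often multiple. Of the 45 genes, 38 (84.4%) had at least 2 sites, beside 51.6% of 13055 coding genes with a site, and Usp34 had the most, 8. The family's median level is also higher than that of all genes, and the part of level in the number of sites found was not tested. The 7 genes with 1 site were Usp5, Usp8, Usp18, Usp35, Usp39, Usp51 and Usp54. Of the family's tags, 91.0% fell on 93 sites in last exons, beside 89.7% of the tags of all genes, and 7.18% on 11 sites downstream of the annotated gene. Introns held 9 sites with 1.44% of the tags and coding exons 4 sites with 0.394%. At the most used site, the 40 bases before the end could be read from GENCODE M21 transcripts for 44 genes: 25 (56.8%) held AATAAA, 10 (22.7%) held ATTAAA alone and 9 (20.5%) held neither. Over 12565 coding genes these shares were 70.6%, 15.8% and 13.7%. Both motifs were searched on the transcript strand only. At the weaker sites of Usp genes, 46.8% held AATAAA and 37.1% neither, beside 43.5% and 38.6% over all coding genes. Where the 20 bases after a site could be read, A-rich sequence followed 2 of 16 most used Usp sites (12.5%), beside 3.2% in coding genes. It followed 8 of 54 weaker Usp sites (14.8%), beside 9.4%. How many of these sites are true ends was not tested.

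Whether the choice between 2 ends followed stage was asked for the 2 most used sites of a gene, where neither site had less than 5% of the gene's tags and where the libraries averaged at least 20 tags over both sites. The distal share is how much of the pair's tags, in percent, fell on the site farther downstream. Of 6067 genes with such a pair, 32 were members. In the test on the distal site (diffSpliceDGE of edgeR, exon level, adjusted over all pairs), 0 members shifted to the distal and 0 to the proximal site, beside 0.115% and 0% of all pairs. At an unadjusted p under 0.05 this test left Usp7 alone. It sets the slope of the distal site against that of the pair as a whole. With 6 libraries it had little power, least where the distal site holds most of the tags. Its 0 calls therefore do not show that site choice was unchanged. Usp22 had an unadjusted p of 0.706 here and of 0.0188 in the gene-level test that follows. The gene-level test on the same pairs, added after the data had been seen, also called 0 members, beside 1.58% distal and 0.610% proximal of all pairs. At an unadjusted p under 0.05 it left Usp7, Usp22, Usp13 and Usp9x, with adjusted p-values of 0.190, 0.192, 0.240 and 0.291. For neither test was the share of all pairs at an unadjusted p under 0.05 counted. Whether the members named at that level are more than usual is therefore not known. With the 12 columns taken as separate libraries, it called Usp22 (adjusted p = 0.0127) and Usp7 (adjusted p = 0.0209), both to the distal site, beside 10.6% of all pairs, and 0 members to the proximal site, beside 3.49%. Columns of 1 sample are not independent retinas.

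Usp13 showed the widest spread between its first and last stage. Its distal share was 41.9%, 62.9%, 71.9%, 58.3%, 69.1% and 82.2% over the 6 stages, on 31 to 90 tags at the pair. P21 (95% Wilson interval 73.1% to 88.8%) and E13.5 (26.4% to 59.2%) lay 40.3 percentage points apart, while at P0 the 2 columns gave 70.8% and 33.3%. The genes here and below were picked for their difference in share or their p-value. Their intervals make no allowance for that choice, so a lack of overlap is a description only. Before adjustment the exon-level p of Usp13 was 0.327 and the gene-level p 0.0301. The 2 sites are 2812 bases apart in the last exon and just past its end (chr3:32935231-32935260 and chr3:32938042-32938071, GRCm38, plus strand). The near end has AATAAA and the far end ATTAAA, marked in capitals in the bases before each.
Usp13, proximal site: acaaAATAAAagattttataaaactttgca
Usp13, distal site: tagttttaaATTAAAagctattctcacaaa

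In Usp7 the postnatal shares were the higher ones. Its distal share was 10.7%, 12.8%, 10.7%, 23.5%, 21.8% and 20.6%, so that all 3 postnatal shares lay above all 3 embryonic ones. The intervals were 16.5% to 25.3% at P21 and 8.02% to 14.2% at E13.5, on 277 to 395 tags at the pair. The distal site lies 880 bases beyond the main one, downstream of the annotated gene, and its bases are not in the transcripts used. The main site (chr16:8689602-8689631, minus strand) has AATAAA, in capitals.
Usp7, proximal site: atgttgAATAAAattttctataaaaattat

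In Usp22 the stages differed by less, but on many more tags (661 to 1102 at the pair). Its distal share was 82.3%, 82.2%, 83.5%, 86.1%, 86.0% and 89.9%, with all postnatal shares above the embryonic ones. Usp7 and Usp22 were not alone in this order, as it also held in Usp24, Usp42 and Usp48. In Usp3, Usp14 and Usp9x all postnatal shares lay below the embryonic ones. How often either order occurs over all pairs was not counted. The P21 interval (87.3% to 91.9%) lay above that of E13.5 (79.8% to 84.5%). Its sites are only 154 bases apart in the last exon (chr11:61151786-61151815 and chr11:61151940-61151969, minus strand). Both have AATAAA, but the proximal one is followed by A-rich sequence, and whether it is a true end was not tested.
Usp22, distal site: tatcatAATAAAgctgcattttattctgaa
Usp22, proximal site: tatagctttgaAATAAAaaatcgtgaggga

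In Usp27x and Usp9x the distal share was lower at P21 than at E13.5. Usp27x had 30.3%, 15.0%, 34.4%, 20.3%, 15.5% and 8.33%, on 36 to 100 tags, with an interval of 2.87% to 21.8% at P21 and 21.8% to 40.5% at E13.5. The order of its stages is irregular, and before adjustment the exon-level p was 0.189 and the gene-level p 0.103. Its proximal site (chrX:7372592-7372621, minus strand) has neither signal motif, and its distal one (chrX:7371276-7371305), 1318 bases farther, has AATAAA.
Usp27x, proximal site: gagactcagtaaactgtttgttggctctga
Usp27x, distal site: taaaaatAATAAAaacacccttttgcactc

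Usp9x, a large protease of Smad and Wnt signalling, had shares of 39.5%, 36.8%, 32.0%, 28.1%, 26.8% and 22.6%, lower at each step, on 32 to 56 tags. Its intervals at P21 (13.5% to 35.5%) and E13.5 (25.6% to 55.3%) overlap. Its proximal site is in an intron. The distal one is in a coding exon (chrX:13123420-13123449, plus strand), exactly at the end of an annotated transcript, with no signal motif and A-rich sequence after it. No site in the last exon of Usp9x was found by the rule, so its abundance above rests on these internal sites.
Usp9x, distal site: tgtgaattgtcgagaaggaaaactagtagc

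**Figure D4:**
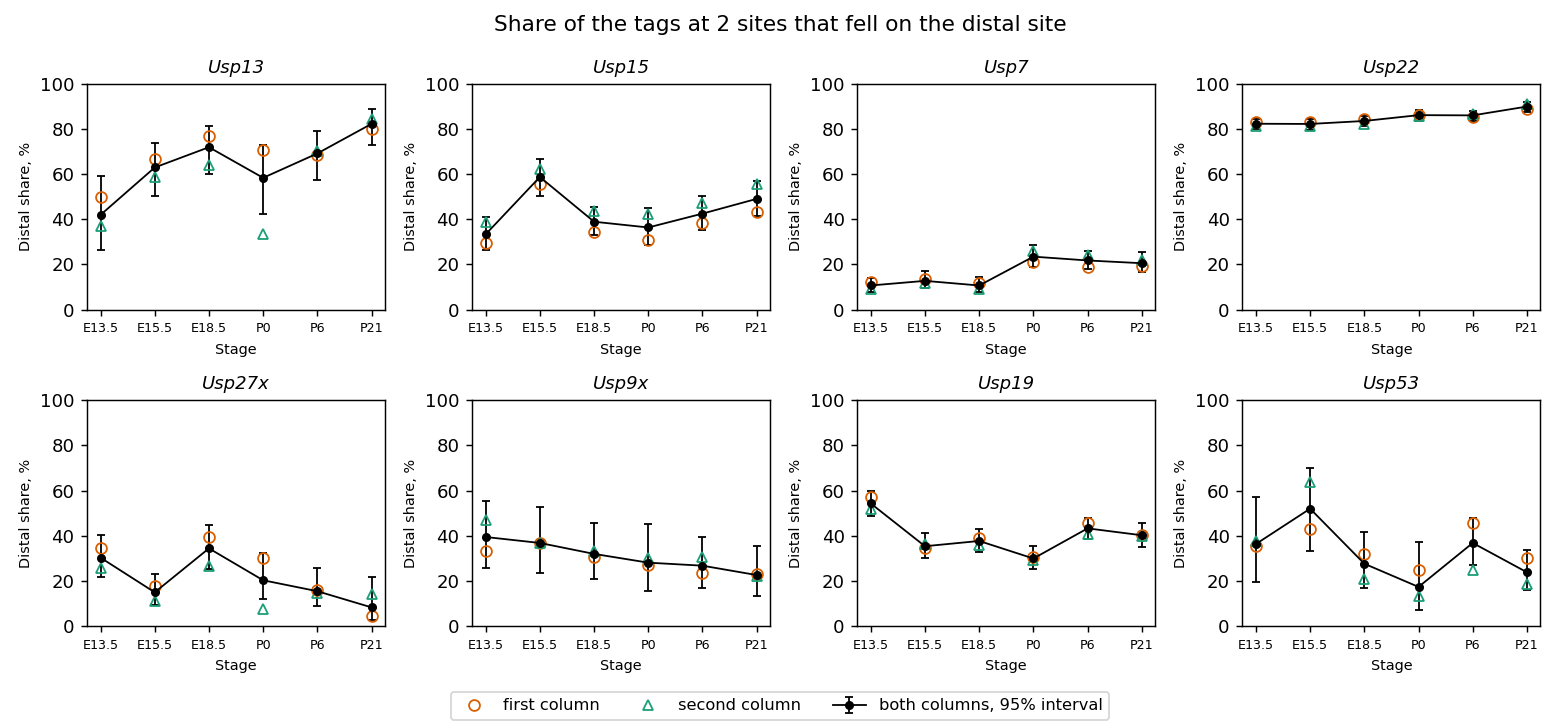
Distal share (percent of the tags at the 2 most used sites) by stage for 8 Usp genes; black points with bars are the added columns with 95% Wilson intervals, circles the first and triangles the second column. Usp13 lies highest at P21 (82.2%), Usp7 steps up at P0 (23.5%) and Usp22 stays between 82.2% and 89.9%. The shares within the pairs of Usp15, Usp19 and Usp53 go up and down without order.

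Usp15, Usp19 and Usp53 had the next largest differences in share between P21 and E13.5. Usp15, which acts on Smad signalling, had distal shares of 33.3%, 58.7%, 38.9%, 36.4%, 42.5% and 49.0%, with E15.5 highest. Usp19, a protease anchored in the endoplasmic reticulum, had 54.3%, 35.4%, 37.7%, 29.97%, 43.3% and 40.2%, with E13.5 highest. Usp53 had 36.4%, 52.0%, 27.7%, 17.4%, 36.8% and 23.9% on 22 to 88 tags, and its intervals at P21 (16.2% to 33.7%) and E13.5 (19.7% to 57.0%) overlap. None passed the test on stage order, with exon-level unadjusted p-values of 0.766, 0.537 and 0.417 and gene-level ones of 0.633, 0.348 and 0.287. A Usp15 site farther downstream than both sites of its pair (chr10:123105007, 18.7% of the gene's tags) lies outside the pair. It had 21, 34, 55, 33, 59 and 69 tags over the 6 stages. The whole gene had 200, 213, 339, 179, 259 and 256. The share of this site was not tested on its own. Both sites of the Usp15 pair lie in its last exons (chr10:123111735-123111764 and chr10:123113243-123113272, minus strand) and have AATAAA.
Usp15, distal site: cagatttcAATAAAgctattgacggcctta
Usp15, proximal site: aaatcacaAATAAAtcccttttaagtttgc

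Of the 10 genes whose abundance followed stage, 6 had a pair, and 0 of these were called for site choice. Usp2 kept 91.0% to 97.8% of its pair on the distal site. Its proximal site has neither signal motif and is followed by A-rich sequence, and whether it is a true end was not tested. Usp42 kept 92.8% to 97.0% on the distal site, Usp6nl 82.4% to 91.9%, Usp28 11.8% to 20% and Usp20 3.68% to 7.80%. Usp32 and Usp33 had 97.5% and 96.8% of their tags on 1 site and so no pair, and Usp39 and Usp51 had a single site. The steadiest pair was that of Usp4, with 56.5% to 60.04% of the tags at the pair on the distal site at every stage.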

How the data were processed

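PA-seq tags of whole C57BL/6J mouse retina at 6 stages, 1 sample each, were used. Per the file headers, the deposited table gives whole tag counts per poly(A) site in 12 columns (a first and a second per stage). The enrichment score that the authors deposited for each site was not used in a test. The aligner was BWA 0.7.5a-r405 and the build mm10, per the submitters' processing notes. Clustering, filters and duplicate removal are not given in the sources used here.

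Sites were given to GENCODE M21 genes by their 3′ edge, on the same strand, in the gene or within 1000 bases downstream. The members and gene lists were chosen with earlier results of these data known. The 2 columns of a stage were added. Tags per gene were tested in the 14392 genes that reached a CPM of 1 in 2 or more libraries (edgeR 4.0.16 with R 4.3.3, libraries scaled by TMM, quasi-likelihood F test, stage order as a linear term, 4 residual degrees of freedom, Benjamini-Hochberg, adjusted p of 0.05 or less). The SE was obtained from the size of the change and the F statistic. Site choice was tested with diffSpliceDGE on the distal site. The gene-level test on the same pair was added after the data had been seen and is given beside this exon-level one. Intervals are 95% Wilson intervals, exact for the Usp51 ratio, and cover counting error only. The 30 bases shown before a site, and signal motifs, were read from GENCODE M21 transcripts (GRCm38), and a site was called A-rich where the 20 bases after it held a run of 6 A or a stretch of 10 bases with 7 A. Values in every stage are given for members past a threshold, the 6 of highest mean CPM, and the members with the largest P21 to E13.5 difference in distal share. Of each partner list the 3 members with the largest change past the threshold are named, filled by the most abundant; 1 gene so picked, and 1 gene that fits the symbol pattern of the members, are not reported here. Other members described with values were picked after these were seen. Alternatives included DESeq2 1.42.0, other filters, single columns, 12 columns, days, periods and leaving out each library.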

Additional observations from a re-analysis of the deposited data

How the results depend on the processing

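The counts of members called depend on which libraries and columns enter the fit, beside 6 risers and 4 fallers in the reported one (2444 and 1879 over all genes). With the 12 columns as separate libraries 11 rose and 9 fell (4051 and 3633 over all genes), and with embryonic against postnatal period as the term 0 rose and 0 fell, as did 0 of all genes tested. The first columns alone gave 1 faller (1613 over all genes), and days after conception in place of stage order gave 7 (2044). Leaving out 1 library at a time gave 1 to 7 risers (lowest without E13.5 or P21) and 0 to 6 fallers (0 without E13.5 or P21, 1 without E15.5 or P6). Over all genes the same settings gave 807 to 2645 risers and 485 to 2400 fallers, both lowest without P21 and highest without P0. DESeq2's own test gave 8 risers and 6 fallers (2739 and 2222 over all genes). The median fitted change of the members was 0.031, with -0.017 in the first columns, 0.083 with days, and -0.0011 to 0.075 without 1 library. No called gene changed direction in any setting run. Usp6nl lost its call only with the period as the term. Outside the period fit, Usp2 lost its call without E13.5, E15.5, E18.5 or P21 and without E15.5 and P0 together. Usp20 lost its call without E13.5, P6 or P21 and with days, and Usp33 and Usp32 without E13.5 or P21. Usp32 also lost it when only sites inside the gene were counted. With the period fit counted in, Usp28 and Usp42 lost theirs in 8 and 9 of 17 settings, Usp53 in 6, Usp39 in 5 and Usp51 in 4. The cause was not tested. Of the genes not called here, Usp1 was called as a faller in 5 settings and Usp27x and Usp22 in 3 each, and Usp30 and Usp48 as risers in 5 each. Usp11, Usp13, Usp24, Usp34 and Usp36 were called with 12 columns only, and Usp3 and Usp40 with days only. For site choice, the gene-level test with 12 columns called 2 members to the distal site, and each other setting run called 0. No paired analysis was possible because each stage had 1 sample. Depth limits the low members most: Usp51, Usp18 and Usp25 had single libraries of under 10 tags.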
